A study of Mus musculus with 4 samples.

Results

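The 250 regions described here are the most enriched sites of REST binding in mouse embryonic stem cells (ESCs), chosen by their rank from 1 to 250 in a deposited list of 2504 regions (mm9), where rank 1 is the most enriched. They make up 9.98% of the list and are called members below. The list came from wild type C57BL/6 ESCs (line N6), maintained with leukemia inhibitory factor on irradiated mouse fibroblast feeders and passaged off the feeders onto gelatin, and the antibody was a rabbit polyclonal raised to a C-terminal peptide of REST. Of the 4 samples of the series, the other 3 (H3K27me3 in wild type cells, H3K27me3 in REST -/- cells of line N8, and input DNA) were not analysed here. Technical and biological replicates were pooled as DNA into 1 library, so no replicate error could be measured, and the tests below compare regions within 1 list. The list gave positions and ranks but no heights or read counts. The depth behind a region is therefore unknown, and the cell type could not be checked against expression markers.

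REST is a zinc finger repressor that silences neuronal genes in stem cells and in cells outside the nervous system. It recruits the corepressors Sin3a and CoREST, and with them histone deacetylases and a histone demethylase, to a DNA sequence termed the repressor element 1 (RE1). The canonical RE1 consists of a left and a right element separated by a short spacer, and both elements can also be bound when they stand further apart or when only 1 is present.

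The consensus was read from the regions ranked below the members, so that no member shaped it. It had a left element of 9 defined bases, 2 free bases and a right element of 10 defined bases. A full RE1 was counted where at most 5 of the 19 defined bases differed, on either strand. At position 19, counted from 1 at the left end, T and G were nearly equal (38.4% each of the best matches in lower regions, that is, in all regions ranked below the members). In the sequences printed here, from the mm9 genome and read 5′ to 3′ along the strand of the RE1, capitals mark the defined bases that match the consensus, and lower case marks free bases and mismatches. The first set shows the consensus and the only 3 perfect matches found in members, at Npas4 (rank 9), Vstm2l (rank 13) and Chgb (rank 34).
RE1 consensus: TTCAGCACCatGGACAGCTCC
Npas4 copy 2 (chr19:4989160-4989180, plus strand): TTCAGCACCgcGGACAGCTCC
Vstm2l copy 1 (chr2:157739009-157739029, minus strand): TTCAGCACCacGGACAGCTCC
Chgb copy 1 (chr2:132607530-132607550, plus strand): TTCAGCACCccGGACAGCTCC

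The most enriched members held several RE1s. The region of rank 3, in an intron of Camta1, a calmodulin-binding transcription activator, held 8 full RE1s, the most of any member. The region of rank 5, in an intron of Gm16532, held 6, and 7 other members held 4. These 7 lay nearest to Erich1 (rank 2), Celf4 (rank 4, a neuronal RNA-binding protein), Npas4 (rank 9, an activity-dependent neuronal transcription factor), Kcnk9 (rank 11, a background potassium channel), Vstm2l (rank 13), Tcl1 (rank 22, a coactivator of Akt) and Zfp473 (rank 23, a zinc finger protein). Of the other regions in the first 25, those nearest to Nphp4 (rank 6, a ciliary protein), Phf21b (rank 7) and Rbfox3 (rank 15) held 3. So did those nearest to Tas1r3 (rank 16, a taste receptor) and Golga7b (rank 17) and another nearest to Xkr6 (rank 25). Those nearest to 2310047B19Rik (rank 19), Matn1 (rank 20, a cartilage matrix protein) and Gm7935 (rank 24) held 2, and that nearest to Gm6793 (rank 21) held 1. Some of these nearest genes were distant. Their start sites lay 315 kb away for Nphp4, 171 kb for Matn1 and 114 kb for Gm6793. Those of Tcl1, Celf4 and Xkr6 (rank 25) lay 99.7, 85.7 and 81.7 kb away. The copies of Camta1 and Xkr6 are shown because they differ in kind. The 8 Camta1 copies have 2 to 5 mismatches and diverge from each other, whereas the 3 copies at Xkr6 (rank 10) are identical in all 21 bases.
Camta1 copy 1 (chr4:150978696-150978716, minus strand): TTCAGgACCgaGGACAGCaCC
Camta1 copy 2 (chr4:150978730-150978750, minus strand): TTtgGgACCgaGGACAGCggC
Camta1 copy 3 (chr4:150978795-150978815, minus strand): TTCAGaACCagGGACAGCgCC
Camta1 copy 4 (chr4:150978858-150978878, minus strand): TTCAGaACaggGGACAGCggC
Camta1 copy 5 (chr4:150978903-150978923, minus strand): TTtAGgACCagGGACAGCTCC
Camta1 copy 6 (chr4:150979111-150979131, minus strand): TTCAGggCCagGGAtAGCaCC
Camta1 copy 7 (chr4:150979204-150979224, minus strand): TTCAGgACCagGGACAGtctt
Camta1 copy 8 (chr4:150979237-150979257, minus strand): TTCAGgACCacGGACAGCaaC
Xkr6 copy 1 (chr14:64300456-64300476, plus strand): ggCAGCACCacGGACAGCTCC
Xkr6 copy 2 (chr14:64300520-64300540, plus strand): ggCAGCACCacGGACAGCTCC
Xkr6 copy 3 (chr14:64300585-64300605, plus strand): ggCAGCACCacGGACAGCTCC

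The region of rank 1 lay between genes at chr4:139814837-139815338, 12.4 kb upstream of the nearest transcription start site (TSS), that of Igsf21, which encodes a synaptic adhesion molecule of the immunoglobulin superfamily. It held only 1 full RE1, with 5 mismatches. With up to 7 mismatches allowed, a limit chosen after its sequence was seen, it held 6 matches, all on the minus strand. They are shown because their right elements are alike at most positions and their left elements are degenerate.
Igsf21 match 1 (chr4:139814957-139814977, minus strand): acCccCACCatGGACAGacCt
Igsf21 match 2 (chr4:139814981-139815001, minus strand): caCgctACCatGGACAGagCC
Igsf21 match 3 (chr4:139815037-139815057, minus strand): cTCAtCACCatGGACAGagCt
Igsf21 match 4 (chr4:139815062-139815082, minus strand): cctAcCACCagGGACAGagtC
Igsf21 match 5 (chr4:139815143-139815163, minus strand): TcaAtCACCatGGACAGagCt
Igsf21 match 6 (chr4:139815169-139815189, minus strand): TcCtctACCatGGACAGagCC

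**Figure D1:**
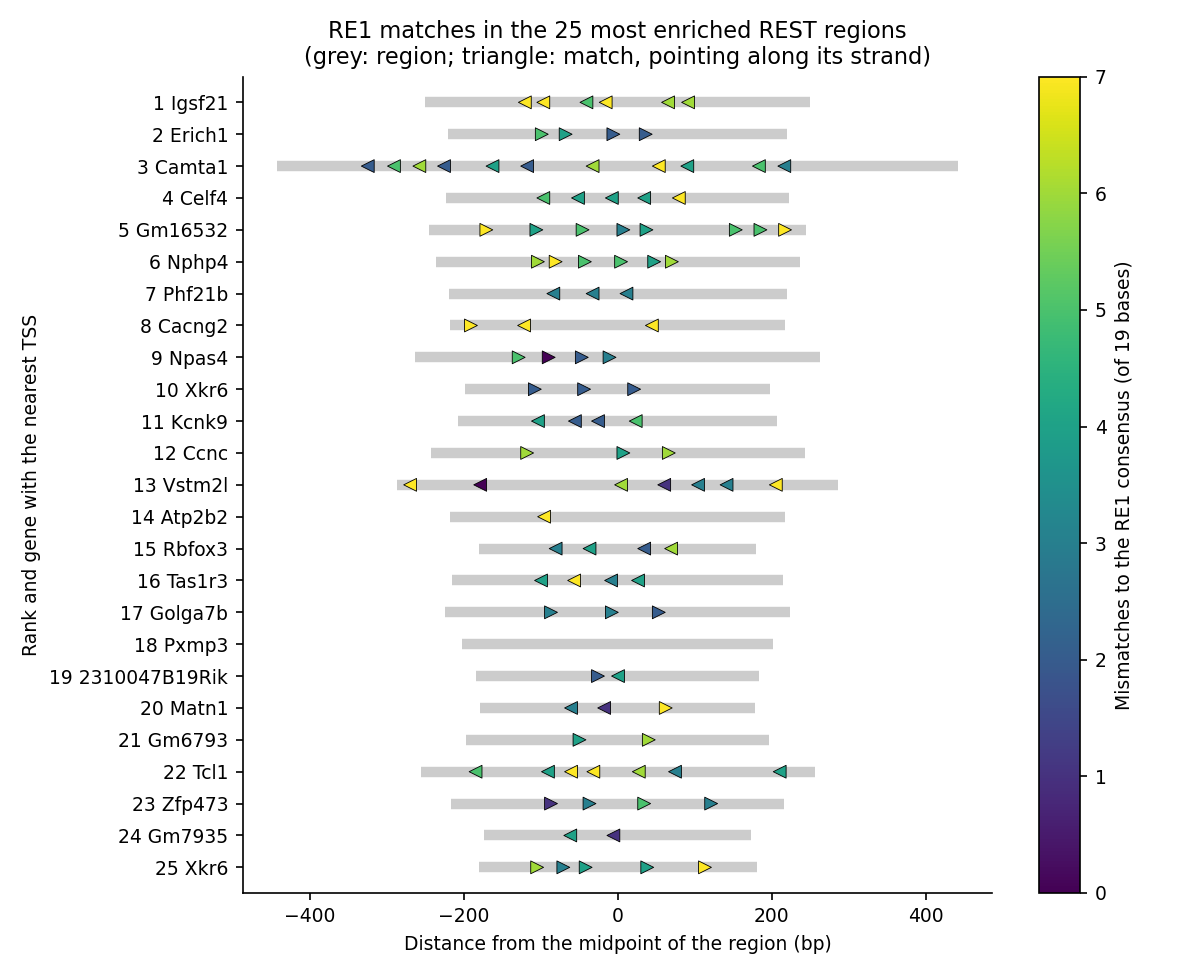
RE1 matches with up to 7 mismatches in the 25 most enriched regions, plotted by distance from the region midpoint in bp. Each grey bar is a region, each triangle is a match pointing along its strand, and the colour gives the mismatches. In 18 of the 25 regions at least 3 matches lie on the same strand, and the region of rank 18 shows none.

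In all, 66 of the 250 members held 2 or more full RE1s (26.4%, exact 95% interval 21 to 32.3%). In the whole list the share was 4.43%, and among lower regions it was 2.00% (45 regions; odds ratio 17.6, Fisher's exact test, two-sided, adjusted p = 1.64e-39 over 12 properties). Of the 66 members, 41 held 2 copies, 16 held 3, 7 held 4 and 2 held more, and 25 members thus held 3 or more against 4 of all lower regions. Members were wider than the next 250 regions, with a median of 343 bp (276 to 2246 bp) against 306 bp (235 to 1476 bp), and so offered more sequence to search. Width comes from the same peak calling as the rank and was not tested. Within the central 200 bp alone, 24.4% of members and 1.64% of lower regions held 2 or more (odds ratio 19.3, Fisher's exact test, adjusted p = 5.42e-38). Intervals and p-values cover counting error over regions only, and regions that share sequence, described below, are not independent of each other.

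The repeated copies were concentrated at the very top of the list. Ranks 1 to 50 contained 31 regions with several full RE1s and ranks 51 to 100 contained 22, followed by 6, 3 and 4 in the next 3 bins of 50. The first 50 regions outside the members contained 1, and ranks 451 to 500 contained 4, as many as ranks 201 to 250. Since the rank chose the members, this order is a description. In the bins of the members the number of regions with any full RE1 was 43, 41, 32, 31 and 37, so the third and the fourth bins had the fewest. With the looser limit of 7 mismatches, 57 members (22.8%) held 3 or more matches on 1 strand, compared with 4.31% of the whole list, 2.26% of lower regions and 0.8% of the windows beside the members. Of these 57, 15 had no more than 1 full RE1.

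**Figure D2:**
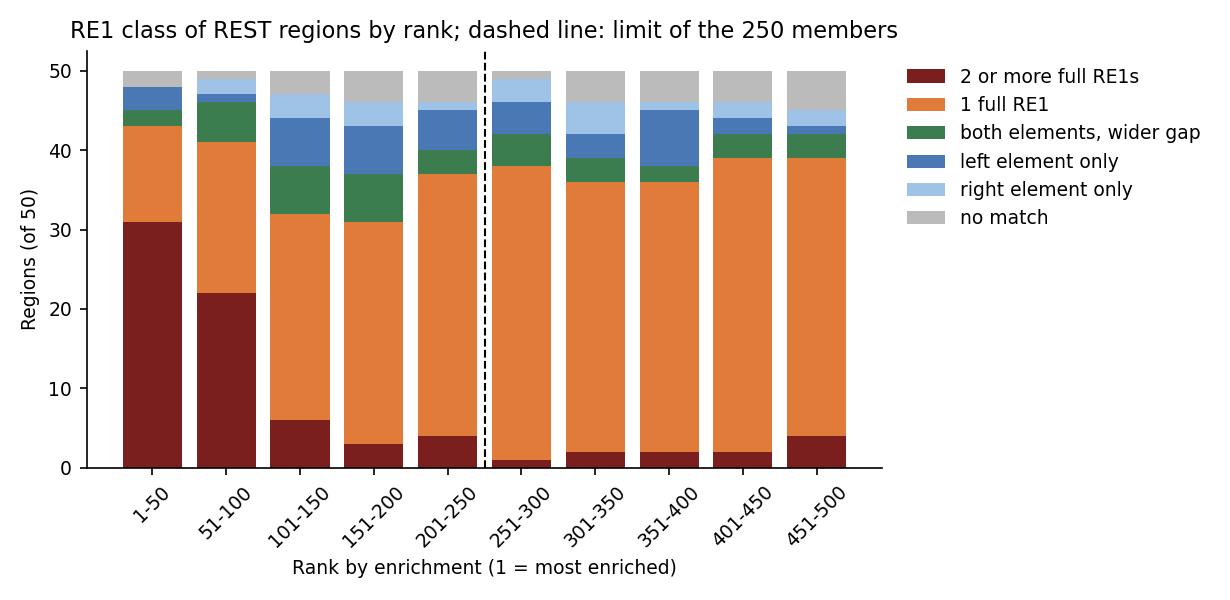
Number of regions in each RE1 class, in bins of 50 ranks from 1 to 500, with the limit of the members dashed. Regions with 2 or more full RE1s fall from 31 in the first bin to 4 in the last bin of members, and number 1 to 4 in the bins past the dashed line. Regions with any full RE1 number 31 to 43 in every bin.

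The copies within a member followed each other closely and in 1 orientation. In 61 of the 66 members (92.4%) all full RE1s lay on the same strand. The 106 distances between neighbouring copies, measured from start to start, had a median of 49 bp, with quartiles of 39 and 64.8 bp and a smallest value of 21 bp, and 66 of them (62.3%) were 30 to 60 bp. The smallest distance follows from counting only copies that do not overlap, since an RE1 is 21 bp long. Neighbouring copies had a median of 16 identical bases of 21 (range 11 to 21), and 3 pairs were identical, 1 at Erich1 and 2 at Xkr6. The best copy of these 66 members had a median of 3 mismatches, as did the only copy of the 118 members with 1. A best copy with 2 or fewer mismatches was found in 25 of the 66 (37.9%) and in 33 of the 118 (28.0%), and one with 4 or 5 in 16 (24.2%) and in 50 (42.4%). This difference was not tested.

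A full RE1 of any number was present in 184 members (73.6%, exact 95% interval 67.7 to 79.0%), compared with 57.2% of the whole list and 55.4% of lower regions (odds ratio 2.24, Fisher's exact test, adjusted p = 1.01e-07). Of 500 windows of equal width placed 2 kb to each side of the members, 15 held one (3%, 1.69 to 4.90%; odds ratio 90.1, exact p = 5.48e-98). The test did not use the matching of these windows to their members. A best match with 2 or fewer mismatches was found in 58 members (23.2%, against 14.5% of the whole list and 13.5% of lower regions; exact test, adjusted p = 0.000271). However, neither difference was found against the next 250 regions. These held a full RE1 in 75.2% and a match with 2 or fewer mismatches in 22.0%, and neither comparison with the members passed Fisher's exact test (adjusted p = 0.997 for each). Of the 12 properties compared with these next 250 regions, only the presence of 2 or more full RE1s passed the exact test (26.4% against 4.4%, odds ratio 7.79, adjusted p = 3.68e-11). At the far end of the list, 29.2% of the 250 least enriched regions held a full RE1 and 0.8% held 2 or more.

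The position and the bases of the RE1 were compared next. The best full RE1 lay a median of 31.5 bp from the midpoint of the member, and within 50 bp in 143 of 184 (77.7%), while in lower regions the median distance was 22.5 bp. Lower regions were also narrower, and this difference in distance was not tested. Position by position, 1 of 19 defined bases passed the test between the best RE1s of members and those of lower regions. It was C at position 18, present in 81.5% of members and 65.7% of lower regions (odds ratio 2.31, Fisher's exact test, adjusted p = 0.000189 over 19 positions). The free bases were AT in 28.3% and AC in 19% of the 184 members with a full RE1, against 23.5% and 13.9% in lower regions.

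Seen from the genome, perfect RE1s were rare. The chromosomes held 8 perfect matches, all inside listed regions, and 3 of them inside members. Of 107 matches with 1 mismatch, 12 lay in members (11.2%), and of 350 with 2 mismatches, 53 did (15.1%). The share fell to 6.51% of 1213 matches with 3 mismatches, 0.959% of 8447 with 4 and 0.0992% of 62500 with 5. Members together held 290 full RE1s, and 62 of these had 5 mismatches. Most matches with 1 or 2 mismatches lay in listed regions of lower rank, where 97 and 267 were found in the whole list.

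**Figure D3:**
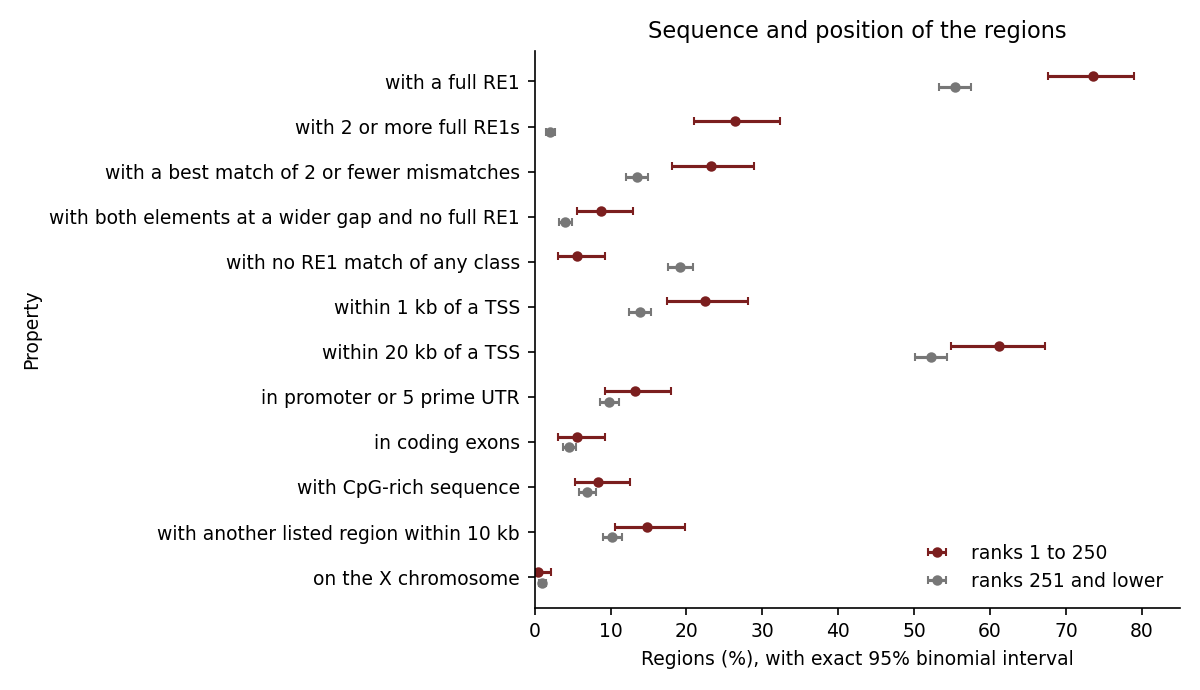
Percent of the 250 members and of all regions of lower rank with each of the 12 properties, with exact 95% binomial intervals. The intervals lie apart for the upper 7 properties, from full RE1s to a TSS within 20 kb, and overlap for the lower 5.

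Not all members carried the 2 elements at the canonical distance. In 22 members (8.8%, 5.60 to 13.0%) no full RE1 was found, but a left and a right element with at most 1 mismatch each lay 3 to 20 bases apart, compared with 4.51% of the whole list and 4.04% of lower regions (odds ratio 2.29, Fisher's exact test, adjusted p = 0.00366). The gap was 7 bases in 7 of these members, 8 in 7, 9 in 4, 10 in 3 and 20 in 1, and no member had a gap of 3 to 6. No lower region of this class had a gap of 3 to 6 either. The best ranked examples of each gap of 7, 9 and 10 bases and the pairs at the TSSs of Scg3 and Unc13a are shown, with the bases between the elements in lower case. The pair nearest to Gm9867 (rank 52) matches both elements without a mismatch.
Rph3a gap 7 (rank 37, chr5:121528753-121528778, minus strand): TTCAGCACtgccaggaGGACAGCTCC
Scg3 gap 8 (rank 120, chr9:75531750-75531776, minus strand): TTCAGCACCcgcggggcGGACAGCgCC
Unc13a gap 8 (rank 130, chr8:74195626-74195652, plus strand): TTCAGCACCgggggcgcGGACAGCgCC
Gm9867 gap 9 (rank 52, chr4:139995986-139996013, minus strand): TTCAGCACCccagcattgGGACAGCTCC
Atp2b2 gap 10 (rank 14, chr6:113802545-113802573, minus strand): aTCAGCACCtggggcttgaGGACAGCTCa

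Many of these members stood at the start of a gene. Of the 22 members, 11 (50%) lay within 1 kb of a TSS, and their median distance was 1108 bp, whereas 36 of the 184 members with a full RE1 (19.6%) and 8 of the 21 with a left element (38.1%) lay that close. The members at Scg3 (secretogranin III, a granin of dense-core granules), Unc13a (a vesicle priming factor), Tph2 (the enzyme of neuronal serotonin synthesis) and Svop (a synaptic vesicle protein) had their midpoints 6, 15, 17 and 84 bp from a TSS. Others lay 379 bp from the TSS of Cplx1, complexin 1, and 510, 550 and 722 bp from those of Tsen54, a subunit of the tRNA splicing endonuclease, Yif1a and Gabarapl2, genes that are not specific to neurons. The class was read after the positions were known, and this difference was not tested. Scoring every pair of elements at gaps of 0 to 20, whatever the class, gave 34 members with the canonical gap of 2, 29 members with a gap of 7 to 20 and none with gaps of 3 to 6. Of 2254 lower regions, 184 had the gap of 2, 106 had a gap of 7 to 20 and none had gaps of 3 to 6. None of the windows beside the members held a pair at any gap.

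The gap of 20 counted near Unc5a (rank 53) spanned a second pair of elements that stood closer together than in the canonical RE1. In this member and in those nearest to Erc2 (rank 181), Gdap1 (rank 204) and Insm2 (rank 56), both elements lay 1 base apart, and near Gpr158 (rank 141) they adjoined. A shortened gap was not among the classes fixed for the search, and these members were therefore counted under the wider gap or the left element. It was not particular to members, since 11 of 2254 lower regions held a pair at a gap of 1 and 7 at a gap of 0. The pairs at Erc2 and Gdap1 match every defined base.
Unc5a gap 1 (chr13:55072438-55072457, plus strand): TTCAGCACCtGGACAGCTtC
Insm2 gap 1 (chr12:56701370-56701389, plus strand): gTCAGCACCgGGACAGCgCC
Erc2 gap 1 (chr14:28409661-28409680, minus strand): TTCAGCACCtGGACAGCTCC
Gdap1 gap 1 (chr1:17135702-17135721, plus strand): TTCAGCACCaGGACAGCTCC
Gpr158 gap 0 (chr2:21289081-21289099, plus strand): TTCAGCACtGGACAGCTCC

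**Figure D4:**
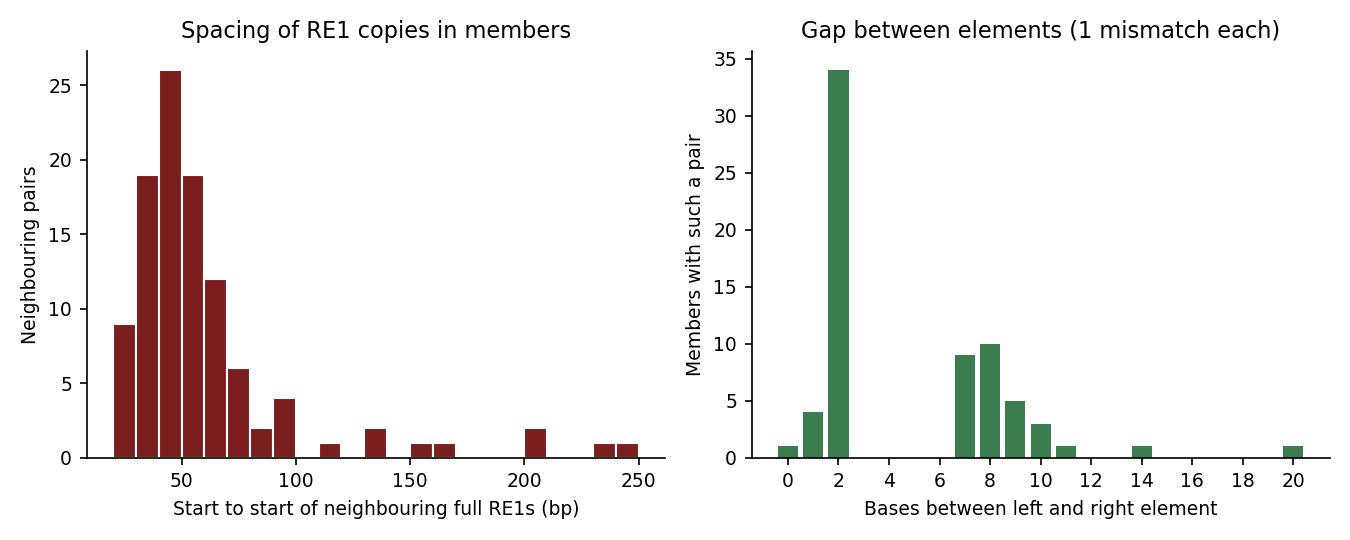
Left, distances in bp between neighbouring full RE1s in the 66 members with several copies, as counts of 106 neighbouring pairs. Right, number of members holding a left and a right element (at most 1 mismatch each) at each gap of 0 to 20 bases. Most distances lie between 30 and 60 bp, and gaps fall at 0 to 2 and 7 to 11 bases, with 1 member each at 14 and 20.

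Elements on their own completed the list of members with a match. Neither a full RE1 nor a wider gap but a left element was found in 21 members, among them those nearest to Gpr158, Erc2 and Gdap1 with the shortened gap, and a right element without a left one in 9. The left element class made up 8.4% of members, 11.1% of lower regions and 11% of the windows beside the members. The right element class made up 3.6% of members, 10.2% of lower regions and 2.2% of the windows. These classes were not tested. The best ranked of these members was the region of rank 8 in the 5′ UTR of Cacng2, which encodes stargazin, the auxiliary subunit of AMPA receptors. Its midpoint lay 66 bp downstream of the TSS, and it contained 4 left elements, while its best full match had 7 mismatches.

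A group of members resembled each other beyond the RE1. When every listed region was aligned to every other, the largest family of related sequences (alignments of 80 bp or longer) joined 60 regions, of which 24 were members (9.6% of members, 6.25 to 13.9%). It made up 2.4% of the whole list and 1.60% of lower regions. This family was found after the sequences were seen, and the difference was not tested. Alignments within it had a median identity of 73.3% (64.9 to 89.2%). Every one of its 24 members held a full RE1 and 14 of them held several (58.3%, against 23.0% of the other members). None lay within 1 kb of a TSS, although 17 lay within 20 kb, and 18 were intergenic. The whole family of 60 regions was alike, with several full RE1s in 32 (53.3%), none within 1 kb of a TSS and 43 intergenic. The best ranked was the region of rank 12, 15.4 kb upstream of Ccnc, which encodes cyclin C, followed by those near Stmn3 (rank 28, a neuronal stathmin), Cep70 (rank 29, a centrosomal protein) and Klhl7 (rank 30). Their RE1s share an intact right element and a changed left element, and are shown for that reason.
Ccnc copy 1 (chr4:21639482-21639502, plus strand): aTtgcCACCgtGGACAGCTCC
Stmn3 copy 1 (chr2:181036915-181036935, plus strand): gctgcCACCatGGACAGCTCC
Stmn3 copy 2 (chr2:181036981-181037001, plus strand): TgCgctACCgtGGACAGCTCC
Cep70 copy 1 (chr9:99118907-99118927, plus strand): TTCgcCACCatGGACAGCTCC
Klhl7 copy 1 (chr5:23616080-23616100, minus strand): TgagcCACCatGGACAGCTCC

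In the best RE1 of the 24 family members, the consensus A at position 4 was present in 41.7% and the consensus G at position 5 in 8.33%, compared with 98.1% and 97.5% of the 160 other members with a full RE1. Position 5 was C in 19 of the 24. In the right element the order was turned round. T at position 19 was present in 91.7% of family members and 28.1% of the others, and C at position 20 in 100% and 63.1%. Leaving the whole family out of both groups, 23.0% of members and 1.22% of lower regions still held 2 or more full RE1s (odds ratio 24.3, Fisher's exact test, adjusted p = 8.26e-36). Without it the match at position 4 also passed the exact test (98.1% of members, 92.3% of lower regions, adjusted p = 0.0430), while that at position 18 was 78.8% against 64.8% (adjusted p = 0.00668).

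**Figure D5:**
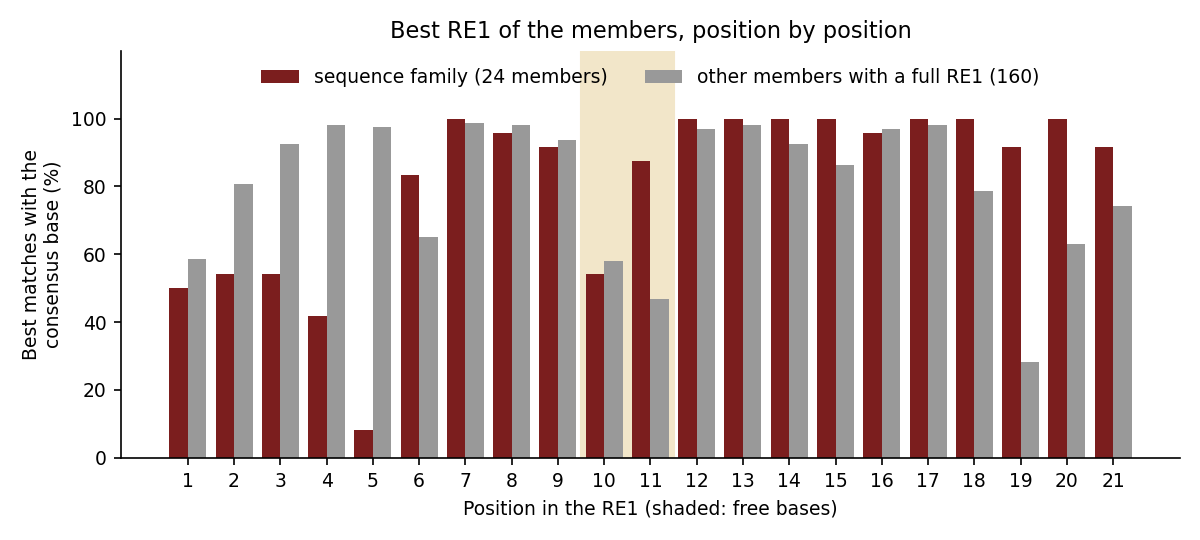
Percent of best RE1s with the consensus base at each of the 21 positions, for the 24 members of the sequence family and the 160 other members with a full RE1. The free bases are shaded. The family lies at 41.7% and 8.33% at positions 4 and 5, where the other members lie above 97%, and is higher from position 17 to 21.

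Members lay nearer to genes than the rest of the list. Their midpoints were a median of 9.79 kb from the nearest TSS of a protein-coding transcript, against 17.1 kb for lower regions. Within 1 kb of a TSS lay 56 members (22.4%, 17.4 to 28.1%), compared with 14.7% of the whole list and 13.8% of lower regions (odds ratio 1.80, Fisher's exact test, adjusted p = 0.00154). Within 20 kb lay 153 members (61.2%), compared with 53.2% of the list and 52.3% of lower regions (exact test, adjusted p = 0.0129). Neither comparison with the next 250 regions passed the exact test (21.6% and 58.8% there, adjusted p = 0.997 for each), and neither call held with ranks 1 to 100 taken as members (18%, exact test, adjusted p = 0.542, and 59%, adjusted p = 0.522). Of the 56 near a TSS, 35 had their midpoint downstream of it and 21 upstream. The single full RE1 of 25 of them pointed along the gene in 12.

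By annotation, 113 members were intergenic (45.2%, against 42.9% of lower regions), 79 intronic (31.6%, against 39.4%, not tested), 24 in promoters (1 kb upstream of a TSS), 14 in coding exons, 9 in 5′ UTRs, 7 in other exons and 4 in 3′ UTRs. The share in promoters and 5′ UTRs (13.2%, against 10.1% of the list and 9.80% of lower regions, adjusted p = 0.130) did not pass the exact test. Neither by this exact test did those in coding exons (5.6%, against 4.63% and 4.53%, adjusted p = 0.467) or in CpG-rich sequence (21 members, 8.4%, against 7.07% and 6.92%, adjusted p = 0.437). Another listed region lay within 10 kb of 37 members (14.8%, against 10.7% of the list and 10.2% of lower regions, exact test, adjusted p = 0.0457). This call was lost without regions of 600 bp or wider (13.2% and 10.1%, exact test, adjusted p = 0.191). The X chromosome held 1 member, at L1cam (0.4%, against 0.919% of the list, exact test, adjusted p = 0.722).

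The genes with a member within 20 kb of a TSS numbered 244, or 1.1% of the 22219 protein-coding genes. On 10 lists of neuronal genes, 36 of 365 had one (9.86%). A listed region of any rank lay within 20 kb of 1822 of the 22219 genes. Among the 10 lists, the share with such a region was lowest for adhesion and guidance (9 of 47 genes). It was highest for neuropeptides and secretory granules (18 of 28). Nearness to genes on these lists was thus found in the whole list and not in the members alone. It was not limited to neuronal genes. Such a region lay near 11 of 27 housekeeping, 8 of 28 pluripotency, 6 of 20 liver and islet and 4 of 18 muscle and heart genes. These shares are within the range of the neuronal lists. Lower shares were found for Polycomb developmental regulators (4 of 45), REST and its corepressors (2 of 21) and feeder fibroblasts (0 of 18). The genes on the 10 neuronal lists accounted for 38 of the 153 members within 20 kb of any gene, and 10 of those 38 held several full RE1s. The lists were drawn up with results of these data known, so their shares are given as counts without a test.

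Most receptor genes of the synapse had no member within 20 kb, and those that had one had it within 1 kb of the TSS. A listed region of any rank lay within 20 kb of 18 of 39 genes of glutamate receptors and stargazins. The same held for 12 of 26 genes of GABA and glycine signalling and 12 of 35 cholinergic and monoamine genes. Among glutamate receptors and stargazins, 4 of 39 genes had a member, which lay at Cacng2 (rank 8), 0.748 kb upstream of its relative Cacng3 (rank 66), 0.842 kb into Dlgap3, a postsynaptic scaffold (rank 71), and 0.289 kb upstream of Grm2, a metabotropic glutamate receptor (rank 206). Those at Cacng3 and Dlgap3 each held 2 full RE1s. Of 26 genes of GABA and glycine signalling, the glycine receptor subunit Glra1 (rank 76) and the GABA-A receptor subunit Gabrd (rank 90) had a member, each with 1 full RE1. Of 35 cholinergic and monoamine genes, the nicotinic subunit Chrnb2 (rank 98), the dopamine receptor Drd2 (rank 228) and the muscarinic receptor Chrm4 (rank 241) had one, all within 1 kb. Of 44 voltage-gated ion channel genes, 2 had a member within 20 kb (4.55%, 0.555 to 15.5%) and 17 had a listed region of any rank. The member at the pacemaker channel gene Hcn3 (rank 197) held 1 full RE1 and lay 0.818 kb downstream of its TSS.

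Genes of vesicle release and secretion formed a second group. Of 47 genes of synaptic vesicle release, 4 had a member and 22 had a listed region of any rank within 20 kb. The calcium sensor Syt7 (rank 41) and the SNARE protein Snap25 (rank 84) each carried 2 full RE1s in an intron, while Unc13a (rank 130) and Cplx1 (rank 230) carried wider gaps. Of 28 genes of neuropeptides and secretory granules, 5 had a member (17.9%, 6.06 to 36.9%). These were the granins Chgb (rank 34, with a perfect RE1 in a coding exon 0.489 kb into the gene), Scg3 (rank 120) and Chga (rank 184), the neuropeptide precursor Vgf (rank 149) and the prodynorphin gene Pdyn (rank 155, 16.1 kb away). Vgf had a second member (rank 225) 0.933 kb downstream of its TSS, with 2 full RE1s against 1 in the first, which lay 0.03 kb from the TSS. Both also lay within 20 kb of the adjacent gene Ap1s1.

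The axonal cytoskeleton had the highest share of the lists, with 7 of 34 genes (20.6%, 8.70 to 37.9%), an interval that overlaps those of the other neuronal lists. They were Stmn3, the scaffold Mapk8ip2 (rank 81), the spectrin Spnb4 (rank 91), the kinesin Kif5a (rank 194), the neurofilaments Nefh (rank 200) and Nefm (rank 220), and the tubulin Tubb3 (rank 216). The member in Kif5a had no RE1 match, and that at Stmn3 belonged to the sequence family. For listed regions of any rank the cytoskeleton did not have the highest share. Such a region lay within 20 kb of 13 of its 34 genes (38.2%), against 64.3% for neuropeptides and secretory granules. Adhesion and guidance genes had members in 5 of 47, namely Igsf21, the atypical cadherin Celsr3 (rank 51), L1cam (rank 72), the netrin receptor Unc5a (its nearest within 20 kb being rank 119) and the neurexin Nrxn2 (rank 175). Of 21 neuronal RNA-binding proteins, 12 had a listed region within 20 kb, but only Rbfox3, which encodes the nuclear antigen NeuN, had a member there. It had 2 (ranks 15 and 227), 15.1 and 15.7 kb from a TSS. Of 44 neural transcription factors, 21 had a listed region of any rank within 20 kb and 3 had a member, namely Camta1, Npas4 and Insm2. The member at Npas4 lay 0.712 kb downstream of the TSS and held 4 full RE1s, 1 of them perfect. The postsynaptic scaffold gene Dlgap4 was the remaining gene with 2 members, ranks 113 and 127.

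Members near the genes of other lists were counted in the same way. No member lay within 20 kb of any of 45 Polycomb developmental regulators, 21 genes of REST and its corepressors, 18 muscle and heart genes, 20 liver and islet genes or 18 genes of feeder fibroblasts. At the 1.1% share of all genes, lists of this size would be near 0 as well. For the 45 regulators a count of 0 allows a share of up to 7.87% (exact 95% interval), and for the lists of 18 to 21 genes one of up to 16.1 to 18.5%. Of 28 pluripotency genes, Lin28a (rank 75), an RNA-binding protein that blocks let-7 processing, had a member 2.01 kb upstream with 2 full RE1s. Of 16 neuronal microRNA genes in the annotation, Mir129-2 had one (rank 221, 4.18 kb upstream, with a wider gap). Of 27 housekeeping genes, 4 did (14.8%, 4.19 to 33.7%), a share within the range of the neuronal lists. They were Rps18, in the neighbourhood of a family member (rank 64), and Eef1a1, Gapdh and Rpl3, whose members had no RE1 match.

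In total, 14 members (5.6%, 3.10 to 9.22%) had no match of any class, compared with 17.8% of the whole list, 19.2% of lower regions (odds ratio 0.250, Fisher's exact test, adjusted p = 2.98e-08) and 83.8% of the windows beside the members. None of the 14 lay within 1 kb of a TSS, against 36 of 184 with a full RE1 (exact p = 0.0779). They were wider than other members, with a median of 572 bp, and 7 of them were 600 bp or wider. The widest member of all was among them (rank 27, 2246 bp, chr7:3220362-3222608). It covered Mir293, Mir294 and Mir295, of the microRNA cluster that is abundant in ESCs, across the 3′ end of Nlrp12.

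Wide regions, among the members and below them, differed from narrower members in sequence and position. In all, 15 members were 600 bp or wider (6%, against 1.36% of the whole list). A full RE1 was found in 4 of them (26.7%), compared with 180 of the 235 narrower members (76.6%). The end of a protein-coding gene lay within 3 kb of 9 of the 15 (60%) and of 23 narrower members (9.79%), where the share in the whole list was 12.7%. The 19 lower regions of this width showed the same pattern, with a full RE1 in 4 (21.1%), no match in 12 (63.2%) and a gene end within 3 kb in 14 (73.7%). Among the wide members, that of rank 133 had its midpoint 1415 bp beyond the 3′ end of Eef1a1, an elongation factor. The midpoints of ranks 229 and 169 lay 1186 bp beyond the end of Rpl3 and 1326 bp beyond that of Rplp1, ribosomal proteins. That of rank 243 lay 1566 bp beyond the end of Hspa8, a chaperone. The member of rank 163 lay 594 bp beyond the end of Gys1 and 2.67 kb from the TSS of Ftl1, a ferritin subunit. Rank 187 lay in the 3′ UTR of Iffo1, 3.86 kb downstream of the TSS of Gapdh. Of the nuclear noncoding RNA genes, Neat1 contained ranks 232 and 239, and rank 106 lay 629 bp beyond the end of Malat1. The threshold of 600 bp was chosen after the widths were seen, nothing here was tested, and the level of these regions in input DNA was not analysed here.

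The 7 narrower members without a match had no end of a protein-coding gene within 3 kb. Those of ranks 18, 150 and 188 lay 284, 462 and 183 kb from the nearest protein-coding TSS, those of Pxmp3, Myom2 and Samd9l. Their 500 bp had observed over expected CpG ratios of 0.861, 0.960 and 0.912. Ranks 77, 126, 194 and 201, nearest to the TSSs of Ccdc3, Wdr95, Kif5a and Rapgef6, had ratios of 0.189 to 0.632.

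At the limit of the members no step was visible. The last 5 members lay nearest to Accn3, Loxhd1, Thy1, Apon and Rapgef1, were 297 to 375 bp wide, and held 1 full RE1 in 4 cases and a left element in 1. The first 5 regions outside them, nearest to 3100002H09Rik, Ankrd34c, Galnt9, Cacng5 and Nav1, were 265 to 334 bp wide, and held 1 full RE1 in 3 cases, a left element in 1 and a right element in 1.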

How the data were processed

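REST ChIP DNA of pooled technical and biological replicates was sequenced as 1 library. The paper's methods name Bowtie with unique reads, the submitters' processing notes BWA and mm9 (versions not given in the sources used here). The methods keep the overlap of PeakRanger and MACS peaks, and whether this list is that overlap is not stated. With 2504 regions it is larger than the set of REST regions that the paper counts, so it is not that set. The deposited values are coordinates, taken as 0-based starts, and the authors' rank score.

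Sequence came from NCBIM37, genes from GENCODE M1. Properties were compared with Fisher's exact test (two-sided, scipy 1.17.1) and Benjamini-Hochberg adjustment at 0.05, over 12 properties or 19 positions. Intervals are Clopper-Pearson 95%. CpG-rich means GC of at least 55% and observed over expected CpG of at least 0.65 over 500 bp. Families are connected blastn 2.17.0 alignments (e-value up to 1e-05). The motif search and test recovered planted answers in simulated data. Deriving the consensus from ranks 251 and lower favours those regions in matching.

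The members, the 18 gene lists and the classes were chosen with earlier results of these data known. Named genes followed a rule: nearest to ranks 1 to 25, up to 5 best ranked per list, 2 or more members, 4 or more or perfect RE1s, the 12 best ranked without a match, and ranks 246 to 255. Any gene that the rule selects and the text does not name is not reported here. Genes named for the sequence family, for a gap between elements or for width (among them Svop, Tph2, Tsen54, Yif1a, Gabarapl2, Erc2, Gdap1, Gpr158, Hspa8, Rplp1, Malat1 and Neat1) were chosen after their values were seen. Alternatives covered mismatch limits, search window, rank limits, neighbours, TSS sets and coordinates. A comparison of repeat-masked sequence was not run because the genome used carried no masking.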

Additional observations from a re-analysis of the deposited data

How the results depend on the processing

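The excess of members with 2 or more full RE1s kept its direction and passed the test under every alternative tried, from 7.60% against 0.222% with at most 3 mismatches to 53% against 2.41% with ranks 1 to 100 as members. With ranks 1 to 100, 4 calls were lost: the wider gap (7% of members), TSS within 1 kb (18%), TSS within 20 kb (59%) and a neighbour within 10 kb (13%). Against the next 250 regions only, 5 calls were lost with the members' shares unchanged: 2 or fewer mismatches (23.2%, against 22%), wider gap (8.8%, against 6%), no match (5.6%, against 7.2%), TSS within 1 kb (22.4%, against 21.6%) and within 20 kb (61.2%, against 58.8%). A further pair changed sign and did not pass: a full RE1 (73.6%, against 75.2%) and a neighbour within 10 kb (14.8%, against 16.4%). The wider gap was also lost at 6 mismatches (4.8%, Fisher's exact test, adjusted p = 0.0523), and the neighbour at 2 kb (6%) and without regions of 600 bp or wider (13.2%). Promoters and 5′ UTRs passed with ranks 1 to 500 (13.6%), and CpG-rich sequence when scored in the listed region (12.8%). With at most 3 mismatches, or without the sequence family, 2 of 19 positions passed instead of 1. The other 93 values kept their call, including those with G at position 19. The alternatives with G, without wide regions and without the family were chosen after seeing the data. The causes were not tested. Members and lower regions come from the same library, so there were no libraries to pair. The windows beside the members are matched to them, and Fisher's exact test did not use this pairing. With 1 pooled library and no read counts, ranks carry no error and neighbouring ranks cannot be told apart.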
